A study of Homo sapiens with 5 samples.

Results

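The transcription factors of the mesenchymal state and of epithelial-mesenchymal transition (EMT) PRRX1, SNAI1, SNAI2, TWIST1, ZEB1, ZEB2, FOSL1, FOSL2, RUNX1 and RUNX2 were followed in IMR32 cells during induction of a MEIS1 hairpin. The arrays name 21357 genes in all, and every probe set that the platform annotation assigns to 1 of these 10 was taken, which gave 40 of the 54675 probe sets on the Affymetrix U133 Plus 2.0 array. IMR32 is an established human neuroblastoma line, and the cells carried a stably integrated short hairpin RNA, described as specific for MEIS1b, that doxycycline switches on. The uninduced cells (0 h) carried the same hairpin without doxycycline, and the other cells had 24, 48, 96 or 192 h of doxycycline. There is 1 array per time point, 5 in all, so no difference between 2 arrays has a replicate check. Doxycycline-treated cells lacking the hairpin are not among the 5 arrays, nor are uninduced cells of later times, so time in culture, doxycycline and the hairpin cannot be told apart.

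SNAI1 and SNAI2 are zinc-finger repressors that bind E-box sequences in the promoters of epithelial genes, and ZEB1 and ZEB2 are zinc-finger homeobox proteins that bind the same kind of site. TWIST1 is a basic helix-loop-helix factor that pairs with E proteins, PRRX1 is a paired-related homeobox factor, FOSL1 and FOSL2 are FOS-family subunits of the AP-1 dimer, and RUNX1 and RUNX2 are runt-domain factors that bind DNA together with CBFB. In neuroblastoma, cells of a mesenchymal state and cells of an adrenergic (sympathetic neuron-like) state are known to convert into each other. Forced expression of PRRX1 is known to move adrenergic cells towards the mesenchymal state.

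None of the 10 factors followed the time of induction past the threshold. TWIST1, SNAI2 and ZEB1 gave clear signals before induction and still gave them at 192 h. TWIST1 came closest to a call, with 945.6 at 192 h against 1336.0 at 0 h. The 2 tested probe sets each of FOSL2 and ZEB2 were low at 48 or 96 h and nearer to their 0 h signal again at 192 h. FOSL2 228188_at was bright enough to be tested only through its high 0 and 192 h arrays. The other 3 FOSL2 probe sets, too dim to be tested, did not share this course, so it is not given to the gene as a whole. PRRX1, FOSL1 and RUNX2 were too dim to be tested.

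Signals are MAS5 values on a linear scale, where the floor is 1. A probe set was tested if its signal averaged 17.9 or more, the overall median. The test was a straight line through log2(signal + 4.7) against the time step, fitted with limma. Each fitted change is what that line spans over its 4 steps, 192 h over 0 h on the log2 scale, with Benjamini-Hochberg adjustment over all 26805 tested probe sets and a threshold of 0.05. The fit measures the scatter of 5 single arrays around a straight line. Folds and percentages that compare the signal of arrays are taken with 4.7 added to each signal. In fits without the 0 h or the 192 h array the line was extended to the missing time, over the same 4 steps. Of the 40 probe sets, 12 passed the signal filter, from 7 of the 10 genes, and 28 did not. In the limma trend 0 of the 12 rose and 0 fell, against 1.09% of all tested probe sets that rose and 0.742% that fell. At an unadjusted p under 0.05 there was 1 of the 12, against 13.6% of all tested probe sets. Fitted changes were positive for 6 and negative for 6, with a median of 0.02 on the log2 scale, and the median over all tested probe sets was also 0.02.

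**Figure D1:**
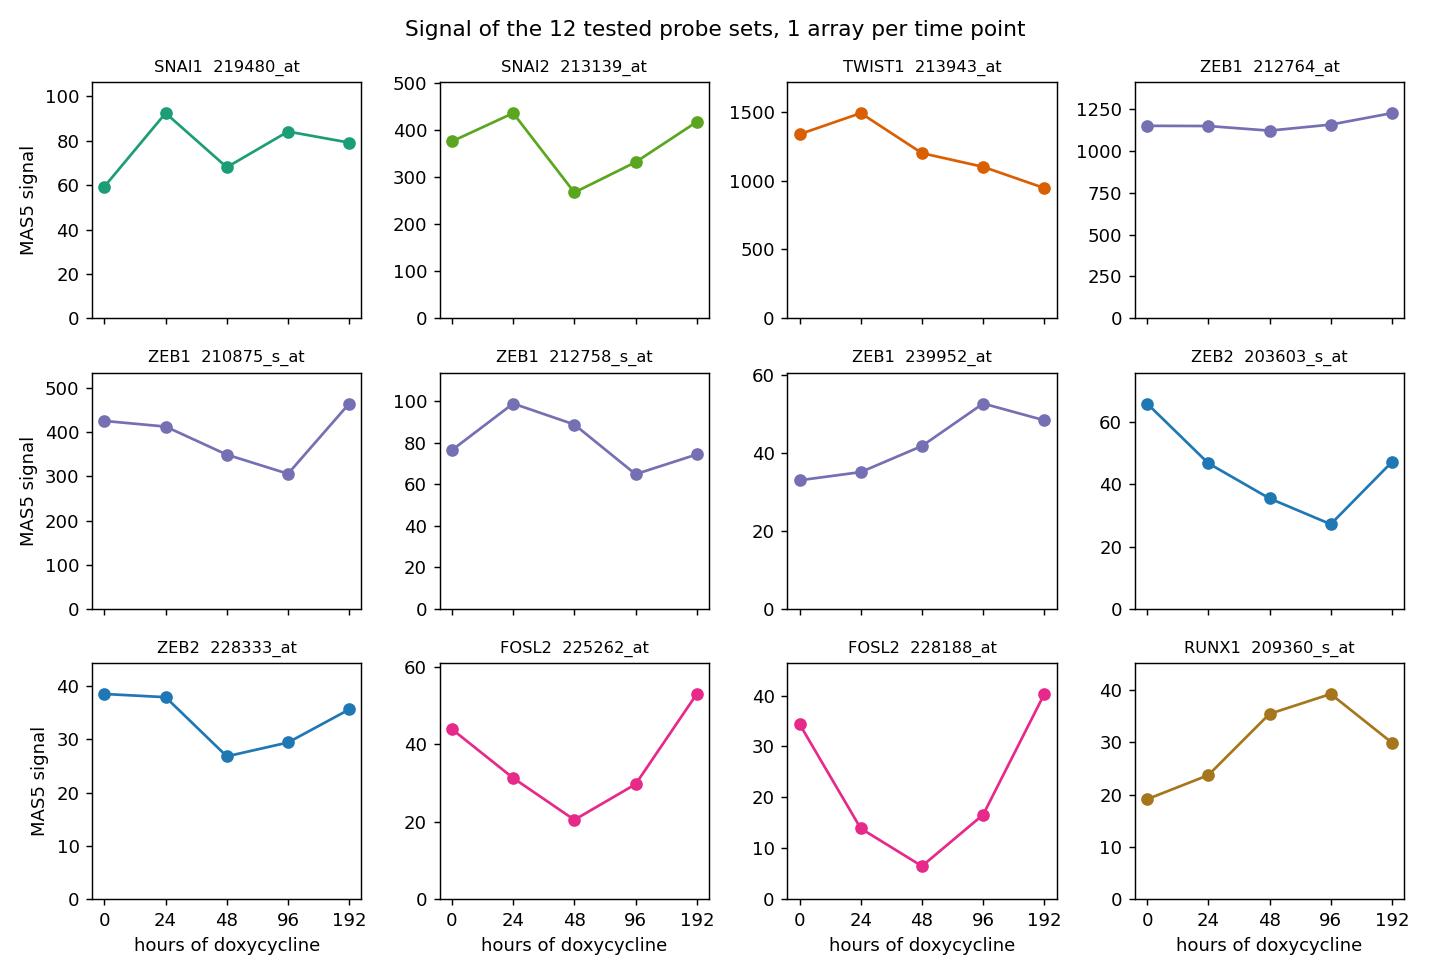
MAS5 signal (linear axis from 0, its own range in each panel) of the 12 tested probe sets at 0, 24, 48, 96 and 192 h of doxycycline, drawn as evenly spaced steps with 1 array per point. TWIST1 is lowest at 192 h, both FOSL2 probe sets are lowest at 48 h, and ZEB1 212764_at stays between 1119.9 and 1224.4.

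**Figure D2:**
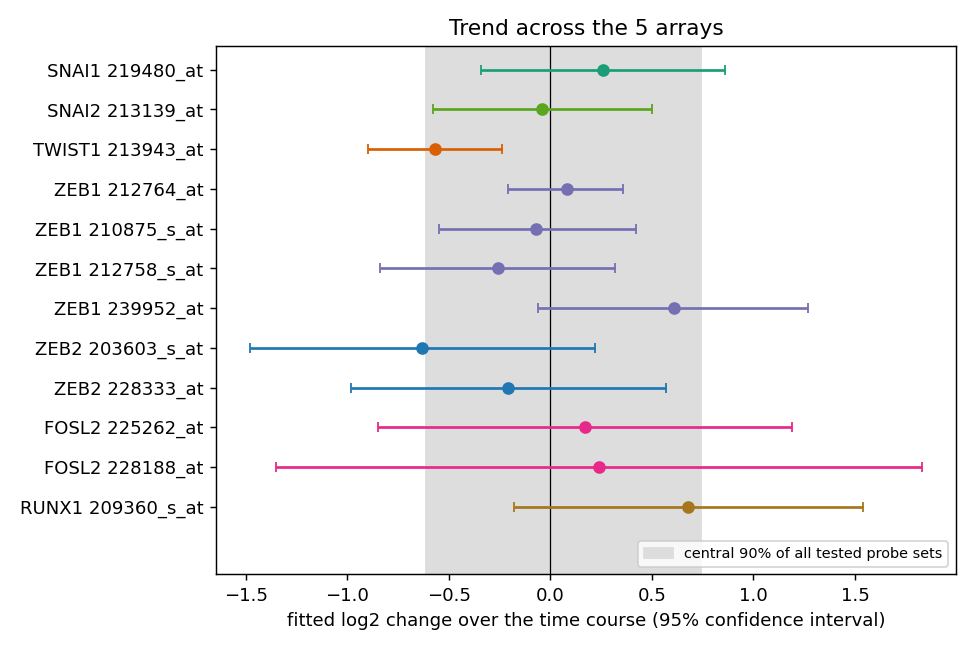
Fitted log2 change over the time course (horizontal axis) of each tested probe set, with its 95% confidence interval as a bar and the central 90% of all tested probe sets (-0.61 to 0.74) as a grey band. Only the interval of TWIST1 lies wholly on one side of 0.

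The arrays were close in scale, with a median signal of 16.0 to 18.9 and between 5.34% and 8.15% of probe sets at the floor. The hairpin's target, MEIS1, read 786.6 at 192 h against 1052 at 0 h in its brighter probe set, which is 74.9% on the scale with the offset, and 443.8 against 597.2 in the other. Neither probe set passed the limma trend (adjusted p = 0.336 and 0.341). The 24 poly-A spike-in probe sets, RNAs added before labelling, differed from their 0 h mean by 0.10, -0.45, -0.61 and -0.25 (log2) in the 24, 48, 96 and 192 h arrays. Of 11 neuroblastoma marker genes with a value, 10 passed the signal filter and 3 of these (CHGB, CHGA and STMN2) rose, and the summed signal of the list was 10995 to 14563. Without the 0 h array all 3 missed the threshold in limma (adjusted p = 0.0743, 0.0628 and 0.135), and STMN2 also did without the 192 h array (0.056). STMN2 read 10, 17.5, 23.3, 73.3 and 58.4 in time order, so its 0 and 24 h signals were under the filter level of 17.9. It passed the filter through its high late arrays, so its rise is tied to that filter and is no support for a rise. The summed signal was 29 to 53 for 5 Schwann cell markers, 82 to 128 for 8 epithelial markers and 40 to 87 for 7 blood and endothelial markers, of which 1, 3 and 1 gene passed the filter. For 10 fibroblast markers it was 844 to 1354, highest at 0 h and lowest at 192 h, and 5 passed the filter. Of these, only PDGFRA fell past the threshold, from 457.3 at 0 h to 131.6 at 192 h, and the other 4 did not pass. Those 4 had fitted log2 changes of -0.5 (PDGFRB), -0.49 (COL3A1), -0.12 (FBLN1) and -0.04 (THY1). The median over the 5 was -0.49, against 0 over all tested genes. Whether the fibroblast markers fell as a group was not tested.

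TWIST1, which is often expressed in MYCN-amplified neuroblastoma, is covered by 1 probe set, 213943_at. In time order (0, 24, 48, 96 and 192 h) it read 1336.0, 1489.3, 1199.0, 1099.5 and 945.6. The signal was thus highest at 24 h and lower at each later time, and at 192 h it was 70.9% of the 0 h level. TWIST1 had a fitted log2 change of -0.57 ± 0.15 (SE; 95% confidence interval -0.90 to -0.24), with an unadjusted p of 0.00268 and a limma adjusted p of 0.0898, which missed the threshold. In 15 alternative fits its fitted change stayed between -0.83 and -0.46 and the adjusted p between 0.0559 and 0.389, so it passed in none of them. The lowest of these p-values came from the fit with 1 probe set per gene. TWIST1 was the 1 tested probe set of the 12 that was lowest at 192 h, where 20.9% of all tested probe sets had their lowest signal.

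The 3 genes whose 4 log2 ratios to 0 h lay nearest to those of TWIST1, by Euclidean distance among genes with 1 tested probe set each, were CTH (0.056), TEDC2 (0.061) and FKBP7 (0.088). CTH, an enzyme that makes cysteine, read 336.9, 371.2, 305.6, 267.1 and 237.6 from 0 to 192 h. Like TWIST1, CTH was highest at 24 h and lowest at 192 h. With 4 ratios per gene taken against the same 0 h array, such closeness describes these 5 arrays only.

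SNAI1, the snail repressor of CDH1, read 59.4 at 0 h and then 92.5, 68.1, 84.2 and 79.2 at 24, 48, 96 and 192 h. All 4 induced arrays were above 0 h, without an order among them. On the scale with the offset they were 1.14-fold (48 h) to 1.52-fold (24 h) higher. Its fitted log2 change was 0.26 ± 0.28 (SE; interval -0.34 to 0.86, limma adjusted p = 0.765), and it was -0.14 without the 0 h array. Its relative SNAI2, known as slug, which marks migrating neural crest cells, read 376.0, 436.0, 267.4, 331.8 and 417.4 in the same order of times. SNAI2 was lowest at 48 h, at 71.5% of its 0 h level, and stood at 111% of it at 192 h. The fitted change of SNAI2 was -0.04 ± 0.25 (SE; interval -0.58 to 0.50, limma adjusted p = 0.976), and its sign depended on the arrays and settings used. These intervals leave room for changes of either sign in both genes.

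ZEB1, which with the miR-200 microRNAs forms a loop of mutual repression, has 4 probe sets, and all were tested. The brightest, 212764_at, read 1148.7, 1147.4, 1119.9, 1155.9 and 1224.4 in time order, a range of 1.09-fold over the 5 arrays. That was the narrowest course among the 12, and its fitted log2 change was 0.08 ± 0.13 (SE; interval -0.21 to 0.36, limma adjusted p = 0.867). The other ZEB1 probe sets did not follow it. Probe set 210875_s_at read 425.9, 413.1, 349.5, 306.1 and 465.3 in time order, so it was lowest at 96 h and highest at 192 h (fitted change -0.07, adjusted p = 0.939). Probe set 212758_s_at was highest at 24 h (98.8, against 76.4 at 0 h) and lowest at 96 h (64.8), for a fitted change of -0.26 (adjusted p = 0.754). The dim 239952_at had the opposite course, with 33.0 at 0 h, 35.1, 41.8 and 52.7 at 24, 48 and 96 h, and 48.4 at 192 h (0.61 ± 0.31, adjusted p = 0.422). The ZEB1 transcripts that each probe set detects were not analysed here. No direction for the gene as a whole is drawn from 4 probe sets that disagree. Nearest to 239952_at in their log2 ratios were WDFY3-AS2 (distance 0.072), SMIM14 (0.094) and TTN (0.113).

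Windows of 300 bases in the RefSeq promoter table (GRCh38.p14), from 250 bases before to 50 after a gene start, were searched for 6 of the 10 genes. Member windows on 1 chromosome were left out of this search, so a gene not searched may still have a window. The shares over all windows were taken without that exclusion. These 13 windows were searched on both strands for the letters CAGGTG (an E-box that SNAI and ZEB factors bind), TGACAG (a MEIS core), TGANTCA (AP-1) and TGTGGT (a RUNX core). Of all 35116 windows of this length in the table, 20.6% hold the E-box, 15.8% the MEIS core, 7.71% the AP-1 letters and 13.1% the RUNX core. Of the 13 windows, 2 held the E-box (both of ZEB1), 1 the MEIS core (ZEB1), 2 the AP-1 letters (FOSL2 and RUNX2) and 3 the RUNX core (2 of ZEB1 and 1 of RUNX2, which held it 4 times). Another ZEB1 window held the E-box 3 times, and the windows of PRRX1, RUNX1 and ZEB2 held none of the 4. The ZEB1 window that holds it is shown because there a MEIS core directly adjoins an E-box, in the gene whose brightest probe set had the narrowest course of the 12. Capitals mark the MEIS core on the reverse strand near the left end and, further right, the MEIS core followed without a gap by the E-box. The match is one of letters only.
ZEB1 promoter window, plus strand, chr10:31318167-31318466: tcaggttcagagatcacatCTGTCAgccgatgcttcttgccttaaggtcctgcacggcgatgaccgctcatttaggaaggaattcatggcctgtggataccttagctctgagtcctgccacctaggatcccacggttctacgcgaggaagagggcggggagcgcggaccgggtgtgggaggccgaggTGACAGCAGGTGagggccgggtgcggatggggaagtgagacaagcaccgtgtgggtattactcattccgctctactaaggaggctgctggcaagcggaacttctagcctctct

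ZEB2, the paralogue of ZEB1 and a factor of neural crest and sympathetic development, has 5 probe sets, of which 2 were tested. The brighter, 203603_s_at, read 66.0 at 0 h and then 46.8, 35.5, 27.2 and 47.2 at 24, 48, 96 and 192 h. It was below its 0 h signal on all 4 induced arrays. On the scale with the offset it was 2.22-fold lower at 96 h than at 0 h, where 1.39% of all tested probe sets were at least 2-fold lower. The second, 228333_at, read 38.5, 37.9, 26.8, 29.4 and 35.6, which is also lowest in the middle of the course and shallower. Fitted log2 changes were -0.63 ± 0.39 (SE; interval -1.48 to 0.22) and -0.21 ± 0.36 (interval -0.98 to 0.57), with limma adjusted p of 0.532 and 0.868. Without 1 array they ranged from -1.52 (without 192 h) to -0.12 (without 0 h) for 203603_s_at and from -0.58 to -0.05 for 228333_at, without passing, and with the spike-in covariate 203603_s_at had -0.06 and 228333_at 0.14. The remaining 3 ZEB2 probe sets had mean signals of 1.94 to 5.86, and none of their values was above 11.9.

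FOSL2, also called FRA2, has 5 probe sets, of which 2 were tested. The brighter, 225262_at, read 43.9, 31.3, 20.5, 29.7 and 53.0 in time order. The other, 228188_at, read 34.4, 13.9, 6.5, 16.6 and 40.3. Both had their lowest value at 48 h and were above their 0 h signal at 192 h. On the scale with the offset 225262_at was 1.93-fold lower at 48 h than at 0 h. For 228188_at the signals at 24, 48 and 96 h were under the filter level of 17.9. It was tested only because its 0 and 192 h arrays raised the mean to 22.3, so no fold between single arrays is given for it. It was the 1 of the 12 counted as at least 2-fold lower than at 0 h at 24 h and at 48 h, against 1.23% and 1.02% of all tested probe sets. Such ratios rest on single dim arrays. The low middle of 228188_at is also tied to how it passed the filter, so this count is no support for a fall. Over the induced times 2 member probe sets were at least 2-fold from 0 h with the offset of 4.7, 1 with an offset 4 times larger, and 3 with an offset 4 times smaller or with array medians set equal. The 2 were 228188_at and ZEB2 203603_s_at. The same share over all tested probe sets was not counted. A straight line describes the courses of 225262_at and 228188_at poorly. Their fitted changes were 0.17 ± 0.47 and 0.24 ± 0.73 (SE), with limma adjusted p of 0.927 and 0.935. Without the 192 h array the fitted changes, with the line extended to 192 h, were -0.80 and -1.34. The 3 dimmer probe sets did not share the course, and the brightest of them, 205409_at, read 3.5 at 0 h, 13.6, 14.9 and 20.6 at 24, 48 and 96 h, and 22.8 at 192 h.

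The FOSL2 window is shown because FOSL2 is itself part of AP-1 and its own start holds the AP-1 letters, as a RUNX2 window also does. Capitals mark that match, which begins at base 255 of the window, counted from its 5′ end.
FOSL2 promoter window, plus strand, chr2:28392608-28392907: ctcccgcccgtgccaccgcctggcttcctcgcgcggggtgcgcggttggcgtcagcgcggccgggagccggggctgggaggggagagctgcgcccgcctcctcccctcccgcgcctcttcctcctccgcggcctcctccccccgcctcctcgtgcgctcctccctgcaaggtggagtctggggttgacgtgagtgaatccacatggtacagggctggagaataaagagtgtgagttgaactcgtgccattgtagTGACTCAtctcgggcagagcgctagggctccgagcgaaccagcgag

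Among the 12 tested probe sets, 8 had their lowest signal at 48 or 96 h, against 37% of all tested probe sets. They were both FOSL2, both ZEB2, the SNAI2 and 3 of the 4 ZEB1 probe sets. Several thus share a gene, so the 8 are not independent. ZEB1 212764_at is among them with only 1119.9 at 48 h against 1148.7 at 0 h. FOSL2 228188_at was tested only through its high 0 and 192 h arrays. Its part in this count and in the medians below is therefore no support for a low middle. The lowest signal was at 0 h for 3 (SNAI1, RUNX1 and ZEB1 239952_at), against 20.5% of all tested probe sets. The median log2 ratio of the 12 to 0 h was 0.04, -0.22, -0.25 and 0.14 at 24, 48, 96 and 192 h, while over all tested probe sets it was -0.02, 0.01, 0.02 and 0.00. At 192 h 0 of the 12 were at least 2-fold lower than at 0 h, against 1.76% of all tested probe sets, which is close for 12 probe sets. At no time was any of the 12 at least 2-fold higher. The share of all tested probe sets that were 2-fold higher was not counted, so nothing is read from this. A quadratic term in the time step, added after this shape had been seen, passed in limma for 0 of the 12 and for 0% of all tested probe sets. At an unadjusted p under 0.05 it did so for 4 of the 12, against 5.55% of all. They were both FOSL2 probe sets, ZEB2 203603_s_at and ZEB1 210875_s_at. The term was chosen from these same values, so this count is no support for the shape. The lowest limma adjusted p was 0.594, for FOSL2 228188_at, whose low signals were under the filter level. The poly-A spike-ins were also lowest at 48 and 96 h. With their level as a covariate the quadratic term again passed for 0 of the 12. As it passed for 0 without the covariate too, that fit cannot show their part in the shape, which was not tested further.

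**Figure D3:**
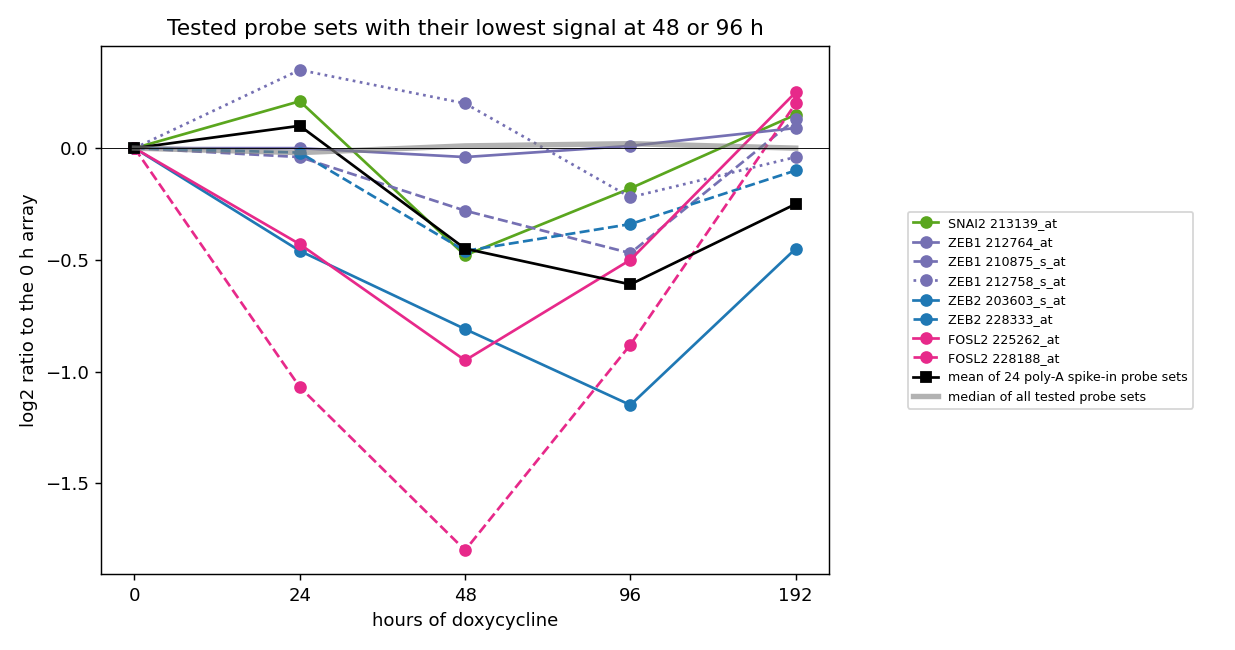
Log2 ratio to the 0 h array (vertical axis) at each time point (evenly spaced steps, in hours of doxycycline) for the 8 tested probe sets that were lowest at 48 or 96 h, with the mean of the 24 poly-A spike-in probe sets in black and the median of all tested probe sets in grey. ZEB2 203603_s_at reaches -1.15 at 96 h and the spike-in mean -0.61 at 96 h. The points of FOSL2 228188_at at 24, 48 and 96 h come from signals under the filter level of 17.9, so their depth is uncertain.

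RUNX1, a runt-domain factor best known from blood formation, has 13 probe sets, which the annotation assigns to RUNX1 and to 2 non-coding genes as well, so their signal cannot be given to RUNX1 alone. Only 209360_s_at was tested, and it read 19.1, 23.7, 35.4, 39.2 and 29.9 in time order. All 4 induced arrays were above 0 h, with a fitted log2 change of 0.68 ± 0.39 (SE; interval -0.18 to 1.54, limma adjusted p = 0.498). The other 12 had mean signals of 1.02 to 10.4 and no value above 17.8. The nearest genes in log2 ratios were GCHFR (distance 0.117), PGM2L1 (0.188) and MAP1LC3A (0.191).

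PRRX1, FOSL1 and RUNX2 had no tested probe set. For PRRX1 the brightest of 3 probe sets read 17.8 at 0 h, 8.7, 11.2 and 16.1 at 24, 48 and 96 h, and 17.5 at 192 h, and the other 2 stayed at or under 2.9. The single FOSL1 probe set, of a FOS-family gene that is often high in mesenchymal tumour cells, read 7.9, 10.8, 5.6, 1.1 and 7.7. Of the 6 RUNX2 probe sets, for the factor that drives bone formation, none had a value above 15.2, and 4 were at the floor on at least 1 array. These probe sets were left untested for low signal, and no direction is drawn from them. The highest mean among the 28 untested probe sets was 15.1 (FOSL2 205409_at) and the lowest among the 12 tested was 22.3 (FOSL2 228188_at).

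Genes known to work beside the members were read from the same fit, with 1 probe set per gene. Of all 11944 tested genes 1.59% rose and 1.09% fell. Of 22 tested partners and cofactors 2 rose and 1 fell, with a median fitted log2 change of -0.03. ID4, which like ID2 binds E proteins and keeps them from pairing with factors such as TWIST1, read 206.8 at 192 h against 98.6 at 0 h (1.05 ± 0.19, limma adjusted p = 0.0147). ID2 read 1093.8 at 192 h against 559.7 at 0 h (0.86 ± 0.19, adjusted p = 0.0416). RUNX1T1, a co-repressor known from its fusion with RUNX1 in leukaemia, fell to 788.4 at 192 h, against 1641.2 at 0 h (-0.94 ± 0.17, adjusted p = 0.0147). ID4 and RUNX1T1 lost their calls without the 0 h array (adjusted p = 0.204 and 0.249) and without the 192 h array (0.0696 and 0.0934), and ID2 without the 0, 96 or 192 h array (0.475, 0.0989 and 0.112). TCF12, an E protein, did not pass (-0.56, adjusted p = 0.0602), but did with 1 probe set per gene (0.0348) and with a filter 2 times as high (0.041). ID3 read 320 at 192 h against 88 at 0 h and did not pass (1.52, limma adjusted p = 0.0713). It did with 1 probe set per gene (0.049), with log2(hours + 24) as time (0.047) and without the 24 h array. ID1 (0.73, limma adjusted p = 0.323) passed only without the 24 h array.

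Of 6 tested further relatives of the members 0 passed, and 1 did so at an unadjusted p under 0.05. JUN, the usual AP-1 partner of FOSL2, had 1147.3 at 192 h against 365.6 at 0 h, with 413.5, 358.6 and 449.1 between (1.36 ± 0.35, limma adjusted p = 0.0813). JUN passed with hours as time (1.63, adjusted p = 0.00752), with the spike-in covariate (2.18, 0.0061), and without the 48 h (1.36, 0.041) or the 96 h array (1.62, 0.0315). PRRX2 and BATF3 each had -0.35. ATF3, a stress-induced AP-1 relative chosen after its values were seen, read 72.6, 45.5, 28.2, 51.7 and 88.3 from 0 to 192 h, with its lowest value at 48 h as in FOSL2. Of 22 epithelial genes on the array that SNAI and ZEB factors are known to repress, 15 were under the signal filter, and of the 7 tested 0 rose and 0 fell. Their median was 0.41. In the limma trend 3 were under an unadjusted p of 0.05, with positive fitted changes for CDS1 and MUC1 and a negative one for ESRP1. Over all tested probe sets 13.6% were under it, and the share over genes was not counted. ESRP1, a splicing regulator of epithelial cells, read 27.5, 24.6, 19.8, 23.3 and 3.5 in time order and did not pass (limma adjusted p = 0.224). Its 192 h value was near the floor, so no size of change is given. CDS1 read 73.2 at 192 h against 36.9 at 0 h (0.98, adjusted p = 0.112).

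Of 25 tested mesenchymal effector genes 0 rose and 2 fell, with a median of -0.26. LGALS1, which encodes galectin-1, read 50.6 at 192 h against 174.9 at 0 h (-1.87 ± 0.38, limma adjusted p = 0.0278), and COL1A1, a type I collagen chain, fell by 2.31 on the log2 scale. COL1A1 kept its call without each array in turn, and LGALS1 lost it without the 24, 96 or 192 h array (0.0735, 0.0511 and 0.264). Of 20 further transcription factors of the mesenchymal state SOX9 rose (1.70) and YAP1 fell (-1.88), with a list median of -0.25. SOX9 lost its call without the 192 h array (0.209) and YAP1 passed without each. Among 21 tested genes of signals upstream of EMT factors 0 rose and 3 fell, with a median of 0.03. The receptor gene PDGFRA, also on the fibroblast list, read 457.3 at 0 h, 359.7, 297.2 and 164.5 at 24, 48 and 96 h, and 131.6 at 192 h (-1.85 ± 0.18, adjusted p = 6.12e-04), and it passed without each array. TGFBR3, a TGF-beta co-receptor, fell by 1.66, and LATS2, a Hippo kinase, by 1.61. TGFBR3 was lost without the 0, 24 or 192 h array (0.0782, 0.053 and 0.124) and LATS2 without the same arrays (0.179, 0.10 and 0.377).

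Adrenergic factors were set beside them as the opposite state. Of 18 tested, 4 rose and 1 fell, with a median of 0.45 against 0.02 for the 12 mesenchymal probe sets; the lists differ in signal and were not tested against each other. The 4 largest changes among those past the threshold were TBX3 (1.72), SIX3 (1.65), GATA2 (1.62) and EYA1 (-1.17). EYA1 passed without each array, while TBX3, SIX3 and GATA2 each missed the threshold without the 0 h array (0.0914, 0.0664 and 0.0627) and without the 192 h array (0.0746, 0.171 and 0.0914), and GATA2 also without the 96 h array (0.0653). TBX2 (0.90) lost its call without the 0 h array (0.223). With the spike-in level of each array as a covariate, 8 of the 18 calls in the related and marker lists were lost in limma. They were those of ID4 (adjusted p = 0.121), ID2 (0.0769), LGALS1 (0.0782), TGFBR3 (0.105) and GATA2 (0.201), and of the neuroblastoma markers CHGB (0.0584), CHGA (0.0926) and STMN2 (0.144). Their fitted changes kept their sign with the covariate: ID4 had 0.92 (1.05 without it), ID2 1.01 (0.86), LGALS1 -2.14 (-1.87), TGFBR3 -1.58 (-1.66), GATA2 1.20 (1.62), CHGB 1.18 (1.32) and CHGA 0.73 (1.04). For STMN2, with its early signals under the filter level, no size is given. Without a signal filter all 18 calls were lost, at adjusted p of 0.0914 (PDGFRA) or more. Under at least 1 alternative 10 further genes of these lists passed, JUN, TCF12, ID3 and ID1 among them.

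**Figure D4:**
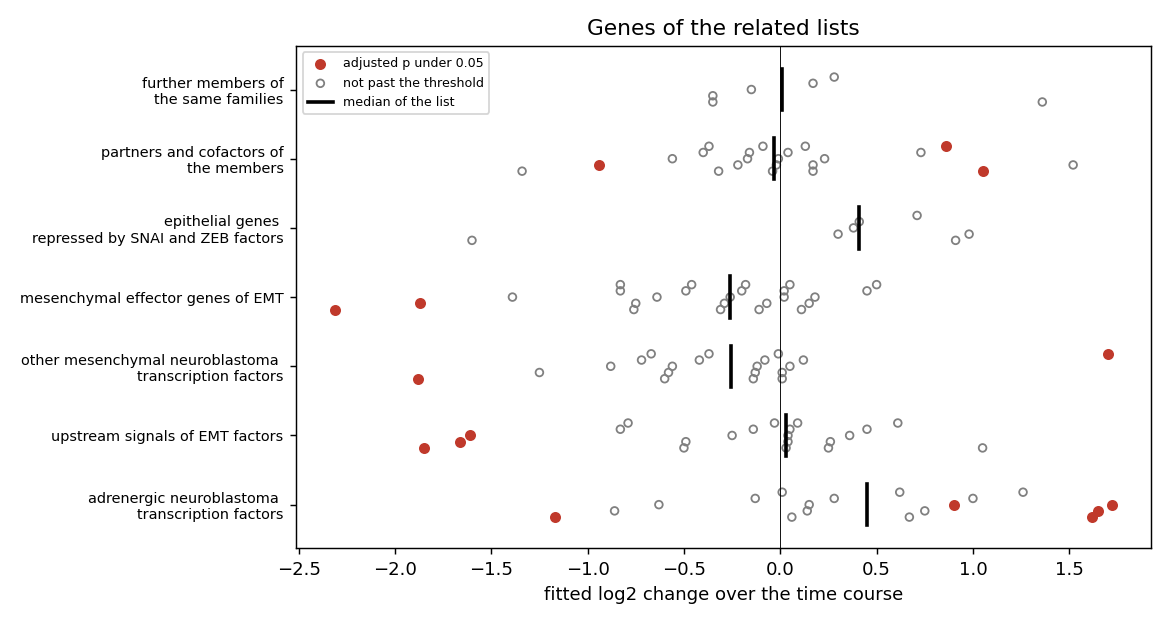
Fitted log2 change over the time course (horizontal axis) of each tested gene in the 7 related lists (rows), filled where the adjusted p was under 0.05 and open otherwise, with the median of each list as a black bar. The mesenchymal effector genes and the further mesenchymal factors have medians of -0.26 and -0.25, and the adrenergic factors 0.45.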

How the data were processed

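Total RNA of 5 cultures of IMR32 cells was hybridised to 1 array each. Per the submitters' processing notes, MAS5 and GCOS made the values. The scale of the deposited values was taken from the values themselves: as log2, 100% of them turn into MAS5 signals that are multiples of 0.1 (within 0.01). No source used here states the log base, the floor or the scaling. With a trim of 2% the mean signal was 100.02 to 100.03 on every array, so no scaling was added. Low MAS5 signals are noisy, and the number of arrays limits the precision.

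Signals were made linear, 4.7 was added (the lower quartile of signals, as a median across the 5 arrays) and log2 was taken. The 62 control probe sets and those under the filter were left out. The fit was limma 3.58.1 in R 4.3.3 with eBayes (trend=TRUE, two-sided; 3 residual and 9.01 prior degrees of freedom), tested on simulated data with known changes. The rule for passing that test was revised after 2 versions failed. False calls there were near the threshold when variances followed limma's own prior and above it when the moderated spreads were taken as true. Annotation names 1 gene for 41097 probe sets, several for 1801 and none for 11777, and 0 symbols changed on look-up in RefSeq (GRCh38.p14). Alternatives changed the offset, the filter, the normalization, the time scale, the probe set per gene, a spike-in covariate and the arrays left out. The members and lists were chosen with earlier results of these data known. All members are named, up to 4 called genes per list (or the 2 largest changes), and the 3 nearest genes of the 3 members with the lowest p. Some genes that passed only under an alternative are named as well.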

Additional observations from a re-analysis of the deposited data

How the results depend on the processing

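No call among the 12 tested probe sets was gained under any alternative run, and the count stayed at 0 in both directions. Other counts moved more. Without a signal filter 0 probe sets rose and 0 fell in all (293 and 199 with it), and 0 and 0 genes of the related lists did (10 and 8 with it), with more probe sets tested. With hours as the time scale 186 probe sets and 5 list genes rose. With the spike-in covariate 120 probe sets rose and 115 fell, and 5 list genes rose. Leaving out 1 array gave 93 to 322 probe sets that rose and 44 to 199 that fell, and 1 to 12 list genes that rose and 4 to 8 that fell. Equal array medians gave 227 rises and 245 falls, that is 48.1% rises among the calls, against 59.6% with the arrays as deposited. The share was 51.1% with the spike-in covariate, 54.2% with hours as time and 67.9% without the 0 h array. The number of members' probe sets at least 2-fold from 0 h was 1 with the offset 4 times larger and 3 with it 4 times smaller or with array medians set equal, against 2. The same share over all tested probe sets was not counted. Of 170 values of single members under alternatives 15 changed sign, none of them called. With hours as time SNAI2 had 0.13 and ZEB1 210875_s_at 0.11; with the spike-in covariate they had 0.49 and 0.38, and ZEB2 228333_at 0.14. With array medians set equal ZEB1 212764_at had -0.01. Without 1 array the fitted change ranged from -0.14 to 0.45 for SNAI1, -0.49 to 0.11 for SNAI2, -0.66 to 0.13 for ZEB1 210875_s_at, 0.00 to 0.13 for ZEB1 212764_at, -0.80 to 1.0 for FOSL2 225262_at and -1.34 to 1.90 for FOSL2 228188_at. The causes were not tested. No paired analysis was possible because each time point has 1 array.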
